A study of Mus musculus with 8 samples.

Results

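The genes described here encode the enzymes of oxidative phosphorylation. Their RNA was measured in sorted CD4+CD8+ double-positive thymocytes of Hdac3KO and WT mice. Hdac3 is a histone deacetylase that acts within corepressors of gene expression. They were matched by symbol, from entries with a single symbol and with earlier results of these data known. The rule took Nduf genes with a subunit letter (a, b, c, s or v) and number. It also took Sdha to Sdhd, all Uqcr genes, Cox4 to Cox8 and all Atp5 genes. The rule found 85 genes among the 23278 entries of each of the 4 deposited tables. By name, 37 belong to complex I, 4 to complex II, 8 to complex III, 19 to complex IV and 17 to complex V. Not every match is a subunit. Cox4nb is an older symbol of Emc8, which belongs to a membrane protein complex of the endoplasmic reticulum. Atp5s and Atp5sl are not subunits of ATP synthase either, and Cox7a2l is known for joining complexes III and IV into supercomplexes. Ndufa4 carries a complex I name and is counted there, although the protein is now assigned to complex IV.

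The series holds 8 RNA samples of C57BL/6 mice in 4 groups of 2: Hdac3KO DP2, Hdac3KO DP1, WT DP2 and WT DP1. Hdac3KO mice are Hdac3 F/F LCK-Cre+, in which the promoter of the T cell kinase gene Lck drives Cre in developing thymocytes, and WT mice are Hdac3+/+. All cells were sorted as GFP+CD4+CD8+. DP2 cells were CD5hi TCRβint and DP1 cells, the earlier ones, were CD5lo TCRβlo. The labels do not say what makes the cells GFP+, whether WT mice carry Cre, or how old the animals were. RNA pools were depleted of ribosomal RNA before libraries were made, so a sample may hold several animals. Levels are FPKM, fragment counts scaled by library size and by the length of the transcript. In each of 4 pairwise Cuffdiff tables the authors deposited 1 such value for a gene and group, not a value per sample. The spread between samples is therefore seen only through the authors' p and q, and whether single samples of 2 groups overlap cannot be examined.

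RNA of the deleted gene was lower in Hdac3KO cells at both stages but not absent, at 0.307 times WT in DP1 and 0.519 times WT in DP2 cells. The part of this remainder in the results was not tested. Hdac3 was at 11.7 FPKM in Hdac3KO DP1 cells against 38.1 FPKM in WT DP1 cells, and at 15.4 FPKM in Hdac3KO DP2 cells against 29.7 FPKM in WT DP2 cells (q = 0.000879 and 0.0131 in the authors' deposited tables). Cd5, the gene of a sorting marker, was at 210.0 FPKM in Hdac3KO DP2 against 54.8 FPKM in Hdac3KO DP1 cells, and at 262 FPKM in WT DP2 against 67.2 FPKM in WT DP1 cells. Xist was at 208 FPKM in Hdac3KO DP1 and 139 FPKM in Hdac3KO DP2 cells, against 0.0945 FPKM in WT DP1 and 0.243 FPKM in WT DP2 cells. The Y-linked gene Kdm5d was at 0.264 and 0.322 FPKM in the same Hdac3KO groups, against 20.0 and 34.6 FPKM in WT DP1 and WT DP2 cells. Genotype and the sex of the animals cannot be told apart in these libraries. Depth per library is unknown, since the files give no counts.

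Oxidative phosphorylation passes electrons from NADH through complex I, or from succinate through complex II, to ubiquinone, then through complex III and cytochrome c to oxygen at complex IV. Complexes I, III and IV pump protons out of the matrix as they do so, and complex V, the ATP synthase, lets them back in to make ATP. Most subunits are encoded in the nucleus, and a core set in complexes I, III, IV and V is encoded in mitochondrial DNA. In the thymus, early progenitors and activated cells are known for high metabolic activity, while double-positive cells are small and largely out of cycle once rearrangement of the TCRα locus begins.

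The factors best known for driving many of these nuclear genes together are NRF1, the ETS factor GABP and YY1. The promoters below are shown because they belong to genes that moved in different ways. Ndufs5, Ndufv2 and Atp5e are among the largest falls in Hdac3KO against WT DP1 cells. Ndufv3 was higher in Hdac3KO than in WT DP2 cells, and Atp5j had almost the same level in both genotypes in DP1 cells. Each run is 120 bases of RefSeq sequence in build GRCm38.p6, free of annotated exons and taken just before the annotated start. Each is read 5′ to 3′ on the gene's own strand, at chr4:123718203-123718322 (minus) for Ndufs5, chr17:66101560-66101679 (minus) for Ndufv2, chr2:174464106-174464225 (minus) for Atp5e, chr17:31519995-31520114 (plus) for Ndufv3 and chr16:84835626-84835745 (minus) for Atp5j. Capitals mark matches on either strand to the NRF1 letters, which are GCGC, any 2 bases and GCGC again, or to the GABP letters CCGGAAG. The GABP match in Atp5e is on the other strand, and the capitals in Ndufv2 are 2 overlapping NRF1 matches. The runs shown do not stand for the other members. Runs chosen in the same way for Ndufb2 and Cox7a2, which also fell in Hdac3KO DP1 cells (log2 change -1.27 and -1.19), hold no match. Those of Atp5h and Cox6a1, which were not called there, hold NRF1 matches.
Ndufs5: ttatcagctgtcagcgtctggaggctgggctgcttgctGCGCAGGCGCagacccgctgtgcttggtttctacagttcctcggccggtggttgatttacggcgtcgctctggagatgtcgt
Ndufv2: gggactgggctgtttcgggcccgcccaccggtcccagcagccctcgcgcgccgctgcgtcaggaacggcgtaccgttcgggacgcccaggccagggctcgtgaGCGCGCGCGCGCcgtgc
Atp5e: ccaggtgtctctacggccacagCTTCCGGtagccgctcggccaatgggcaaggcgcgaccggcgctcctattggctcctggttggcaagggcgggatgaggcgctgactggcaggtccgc
Ndufv3: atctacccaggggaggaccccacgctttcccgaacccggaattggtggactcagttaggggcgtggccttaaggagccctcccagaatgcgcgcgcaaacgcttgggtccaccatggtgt
Atp5j: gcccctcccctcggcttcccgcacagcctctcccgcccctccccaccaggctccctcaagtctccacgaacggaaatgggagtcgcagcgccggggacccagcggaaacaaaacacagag

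RefSeq windows of 250 bases before to 50 bases after the start were matched for 69 of the 85 genes. The NRF1 letters were in 17 of these 69 windows (24.6%) and in 6.22% of all 32817 windows. The GABP letters were in 15 (21.7%) and in 8.86% of all windows, and the YY1 letters AAGATGGC were in 10 (14.5%) and in 2.74% of all windows. At least 1 of the 3 was found in 53.6% of the members' windows and in 16.01% of all windows. Of 34 windows whose genes were called lower in Hdac3KO DP1 cells, 10 held the NRF1 letters and 11 the GABP letters. Of 32 windows whose genes were tested there without passing, 7 held the NRF1 letters and 4 the GABP letters. The YY1 letters were in 3 of the 34 and in 7 of the 32. A match is a string of letters and not a bound site, and windows without one say nothing of the factor.

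The first comparison asks which of these genes differ between Hdac3KO and WT in DP1 cells, the earlier population. RNA of all 5 complexes was lower in Hdac3KO DP1 than in WT DP1 cells. Of 78 members that the authors tested, 44 fell, 0 rose and 34 did not pass at q of 0.05 or less. Over all 10511 genes tested there, 12.9% were called lower and 10.7% higher, 23.6% in all. Summed over the members, the level was 5495 FPKM in Hdac3KO DP1 cells and 9609 FPKM in WT DP1 cells, a ratio of 0.572. The median log2 change of members with at least 1 FPKM was -0.80, and that of all genes with a single symbol was -0.08. Of the 78 values, 76 were lower and 2 higher in Hdac3KO DP1 cells.

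**Figure D1:**
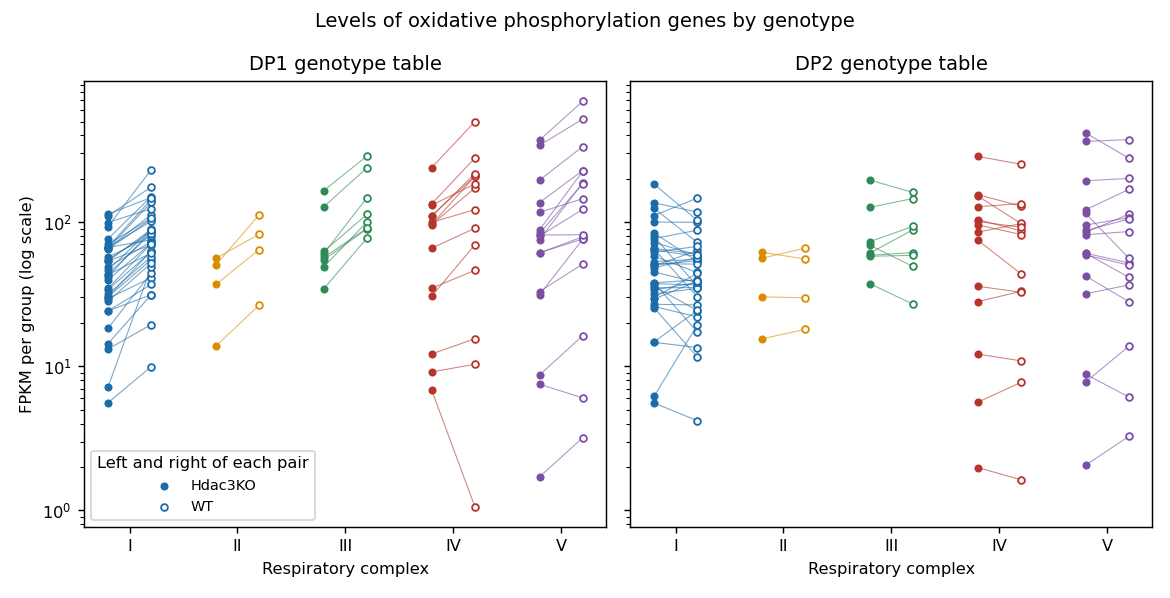
FPKM (log axis) of the members in the DP1 and DP2 genotype tables, by complex, for members with at least 1 FPKM in both groups; filled points are Hdac3KO, open points WT, and lines join the same gene. In DP1 cells most lines run upward from Hdac3KO to WT, for example Atp5b at 371 FPKM in Hdac3KO and 691 FPKM in WT, and in DP2 cells they run both ways.

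The plot of levels shows how far the genes differ among themselves within 1 group. FPKM is a level per length, but changes between groups followed transcript length, as given below, so ranks among genes on it are approximate. In Hdac3KO DP1 cells the members ran up to 371 FPKM with a median of 53.7 FPKM, and in WT DP1 cells up to 691 FPKM with a median of 82.3 FPKM. Atp5b, the catalytic β subunit of ATP synthase, was the highest member in both groups.

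Complex I takes electrons from NADH, and 18 of its 36 tested genes fell in Hdac3KO DP1 cells. Its core subunits of nuclear origin include those that carry the flavin and the iron-sulfur clusters. Ndufv2, an iron-sulfur subunit of the NADH-oxidising tip, was at 93.3 FPKM in Hdac3KO DP1 and 231 FPKM in WT DP1 cells, a log2 change of -1.31 ± 0.32 (SE; q = 0.000879 in the authors' deposited table). It was the highest complex I gene there by its mean over both groups. Ndufv1, the flavin-bearing subunit beside it, was at 28.2 FPKM in Hdac3KO DP1 and 51.9 FPKM in WT DP1 cells (log2 change -0.88 ± 0.26, q = 0.00627 in the authors' deposited table). The core subunits Ndufs3 and Ndufs8 fell too, with log2 changes of -0.73 and -1.13, while Ndufs1 (-0.50, q = 0.137) and Ndufs7 (-1.03, q = 0.885 in the authors' deposited table) missed the threshold.

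Among the 24 accessory genes with an a, b or c letter, Ndufa4 and Ndufa4l2 aside, 11 fell. Ndufs5, an accessory subunit of the membrane arm, had the largest change of any called member. It was at 7.14 FPKM in Hdac3KO DP1 and 48.7 FPKM in WT DP1 cells, that is 14.7% of the WT level (log2 change -2.77 ± 0.68, q = 0.000879 in the authors' deposited table). Its coding sequence has 1 near-identical genomic copy, a pseudogene at 99.4% identity, between which reads could be split. Ndufb2, an accessory subunit of the membrane arm, was at 18.4 FPKM in Hdac3KO DP1 and 44.3 FPKM in WT DP1 cells (log2 change -1.27 ± 0.37, q = 0.00627 in the authors' deposited table). At the other end, Ndufc1 was at 66.7 FPKM in Hdac3KO DP1 and 75.5 FPKM in WT DP1 cells (q = 0.705 in the authors' deposited table).

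Complex II is also the succinate dehydrogenase of the tricarboxylic acid cycle and has 4 subunits, of which 3 fell. Sdhb, its iron-sulfur subunit, was at 50.5 FPKM in Hdac3KO DP1 and 112 FPKM in WT DP1 cells (log2 change -1.15 ± 0.28, q = 0.000879 in the authors' deposited table). The membrane anchors were lower as well, Sdhc at 13.8 FPKM in Hdac3KO DP1 against 26.5 FPKM in WT DP1 cells and Sdhd at 36.9 against 64.4 FPKM in the same groups. Both passed, with q of 0.00862 and 0.0170 in the authors' deposited table. Sdha, the flavoprotein, was at 56.1 FPKM in Hdac3KO DP1 and 82.3 FPKM in WT DP1 cells and did not pass (log2 change -0.55 ± 0.25, q = 0.0920 in the authors' deposited table).

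Complex III carries electrons from ubiquinol to cytochrome c, and all 8 of its genes fell as deposited. Their transcripts are short, with a median of 541 bases, and values with length taken into account are given below. Their log2 changes ran from -1.29 (Uqcrq) to -0.67 (Uqcrfs1, the Rieske iron-sulfur protein). Uqcrq, a small subunit near the ubiquinone site, was at 60.6 FPKM in Hdac3KO DP1 and 148 FPKM in WT DP1 cells (SE 0.32, q = 0.000879 in the authors' deposited table). Uqcrh, the acidic hinge protein and the highest gene of the complex, was at 166 FPKM in Hdac3KO DP1 and 288 FPKM in WT DP1 cells (log2 change -0.80 ± 0.26, q = 0.0132 in the authors' deposited table). Uqcr11 was at 34.4 FPKM in Hdac3KO DP1 and 77.4 FPKM in WT DP1 cells (log2 change -1.17 ± 0.33, q = 0.00436 in the authors' deposited table).

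Complex IV reduces oxygen, and 7 of its 14 tested genes fell. All 7 are among its 10 ubiquitous subunits. Cox6c, the highest, was at 239 FPKM in Hdac3KO DP1 and 498 FPKM in WT DP1 cells (log2 change -1.06 ± 0.26, q = 0.000879 in the authors' deposited table). Cox4i1, the regulatory subunit that binds adenine nucleotides, was at 134 FPKM in Hdac3KO DP1 and 278 FPKM in WT DP1 cells (log2 change -1.06 ± 0.26, q = 0.000879 in the authors' deposited table). Cox7a2 was at 30.6 FPKM in Hdac3KO DP1 and 69.5 FPKM in WT DP1 cells (log2 change -1.19 ± 0.29, q = 0.000879 in the authors' deposited table). The remaining ubiquitous subunits gave smaller values and did not pass, namely Cox5a (-0.41, q = 0.297), Cox6a1 (-0.46, q = 0.210) and Cox7c (-0.29, q = 0.463 in the authors' deposited table). Cox7a2l, the supercomplex factor, was at 131 FPKM in Hdac3KO DP1 and 184 FPKM in WT DP1 cells and did not pass (log2 change -0.49 ± 0.25, q = 0.143 in the authors' deposited table).

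Complex IV also has isoforms that are mainly used in other tissues, such as muscle, lung or testis. Of the 8 such genes, Ndufa4l2 included, 2 could be tested in DP1 cells and 0 passed. Cox7b2 and Cox8c were listed at 0 in all 4 groups. Cox4i2, Cox6a2 and Ndufa4l2, a paralog of Ndufa4 induced by low oxygen in other tissues, were below 1 FPKM in every group. Cox7a1, the heart and muscle partner of Cox7a2, was at 6.85 FPKM in Hdac3KO DP1 and 1.06 FPKM in WT DP1 cells, with a wide error (log2 change 2.69 ± 1.61, q = 0.219 in the authors' deposited table). Cox8b, the heart and muscle partner of Cox8a, was at 1.66 FPKM in Hdac3KO DP1 and 0.256 FPKM in WT DP1 cells and was not tested by the authors. Cox6b2, known from testis, was at 9.12 FPKM in Hdac3KO DP1 and 10.3 FPKM in WT DP1 cells (q = 0.815 in the authors' deposited table), against 95.9 and 173 FPKM for its ubiquitous partner Cox6b1 in the same groups. The ubiquitous isoform was thus the higher one in every such pair with values.

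ATP synthase consists of the F1 head, which makes ATP, a ring of c subunits in the membrane and a stalk that holds them together. Of the 5 F1 genes 4 fell, of the 3 c ring genes 2 fell, and of the 7 stalk and other membrane genes 2 fell. Atp5b fell with a log2 change of -0.90 ± 0.26 (q = 0.00476 in the authors' deposited table). Atp5e, the ε subunit, was at 75.6 FPKM in Hdac3KO DP1 and 188 FPKM in WT DP1 cells (log2 change -1.31 ± 0.32, q = 0.000879 in the authors' deposited table). Atp5l, subunit g, was at 88.4 FPKM in Hdac3KO DP1 and 226 FPKM in WT DP1 cells (log2 change -1.35 ± 0.33, q = 0.000879 in the authors' deposited table). Atp5o, the oligomycin sensitivity protein of the stalk, was at 83.5 FPKM in Hdac3KO DP1 and 186 FPKM in WT DP1 cells (log2 change -1.15 ± 0.28, q = 0.000879 in the authors' deposited table).

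The 3 c subunit genes encode the same mature protein behind different import signals. Atp5g2 was at 31.3 FPKM in Hdac3KO DP1 and 76.0 FPKM in WT DP1 cells (log2 change -1.28 ± 0.32, q = 0.000879 in the authors' deposited table). Atp5g1 was at 8.69 FPKM in Hdac3KO DP1 and 16.3 FPKM in WT DP1 cells (log2 change -0.91 ± 0.35, q = 0.0414 in the authors' deposited table). Atp5g3, the highest of these genes, was at 80.1 FPKM in Hdac3KO DP1 and 123 FPKM in WT DP1 cells and did not pass (log2 change -0.61 ± 0.26, q = 0.0718 in the authors' deposited table). Atp5j, the coupling factor 6 of the stalk, was at 81.5 FPKM in Hdac3KO DP1 and 81.8 FPKM in WT DP1 cells (log2 change -0.00 ± 0.50, q = 0.995 in the authors' deposited table). Its gene overlaps Gabpa, which encodes the DNA-binding subunit of GABP.

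**Figure D2:**
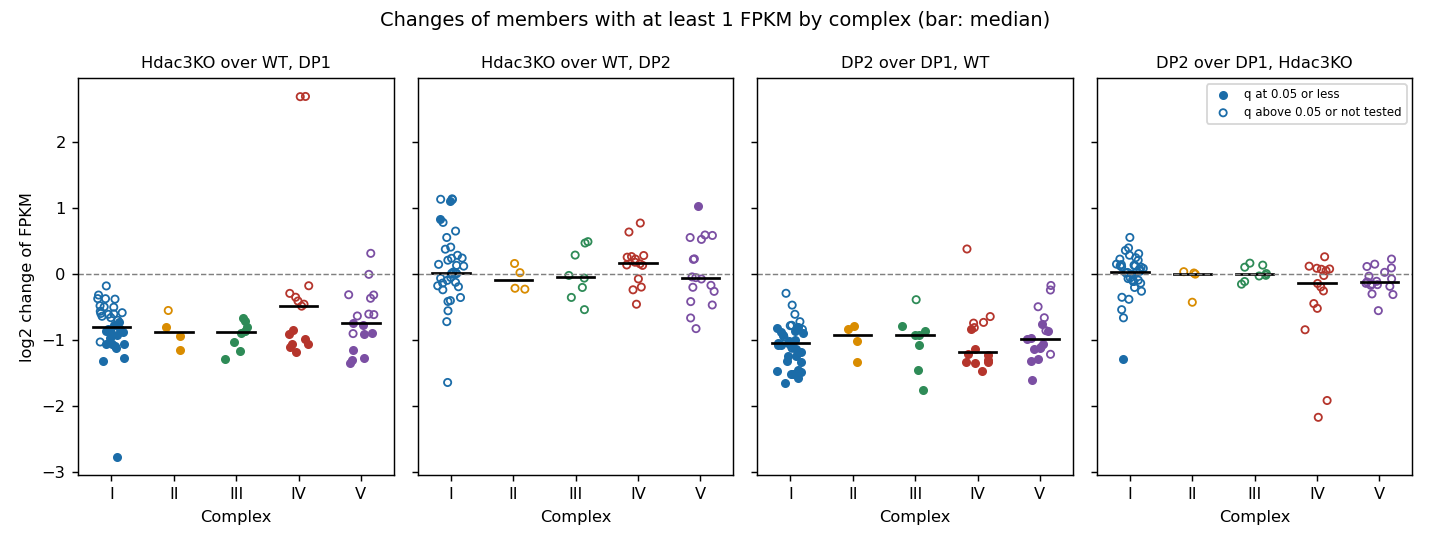
Log2 change of FPKM of each member with at least 1 FPKM in either group, by complex, in the 4 comparisons; filled points passed at q of 0.05 or less, open points did not or were not tested, and bars are medians. Complex medians lie between -0.88 and -0.49 for Hdac3KO over WT in DP1 cells and between -1.17 and -0.92 for DP2 over DP1 in WT cells, and between -0.14 and 0.17 in the other comparisons.

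The plot of changes by complex shows the spread inside each complex. For Hdac3KO over WT in DP1 cells the median was -0.81 in complex I, -0.87 in complex II, -0.88 in complex III, -0.49 in complex IV and -0.74 in complex V. The complex IV median includes Cox7a1 and Cox8b, and that of its 10 ubiquitous subunits was -0.94. Called members stood at between 14.7% (Ndufs5) and 62.7% (Uqcrfs1) of their WT DP1 level in Hdac3KO DP1 cells. Atp5d and Ndufs7 lie in a bundle of 46 genes on chromosome 10 that Cuffdiff gave as 1 locus, and their errors are far above the rest, at 2.64 and 3.97 log2 units. Neither passed.

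Transcript length is small for most members and moved with this result. Their principal transcripts run from 360 to 4942 bases, with a median of 758 bases. Over the 5704 genes at or above 10 FPKM in both of these groups, the change in DP1 cells followed length with a Spearman rho of 0.50, so that short transcripts were lower in Hdac3KO. Across the 78 tested members, which share the same libraries, rho was 0.18. Both are descriptions across genes, which are not independent replicates.

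**Figure D3:**
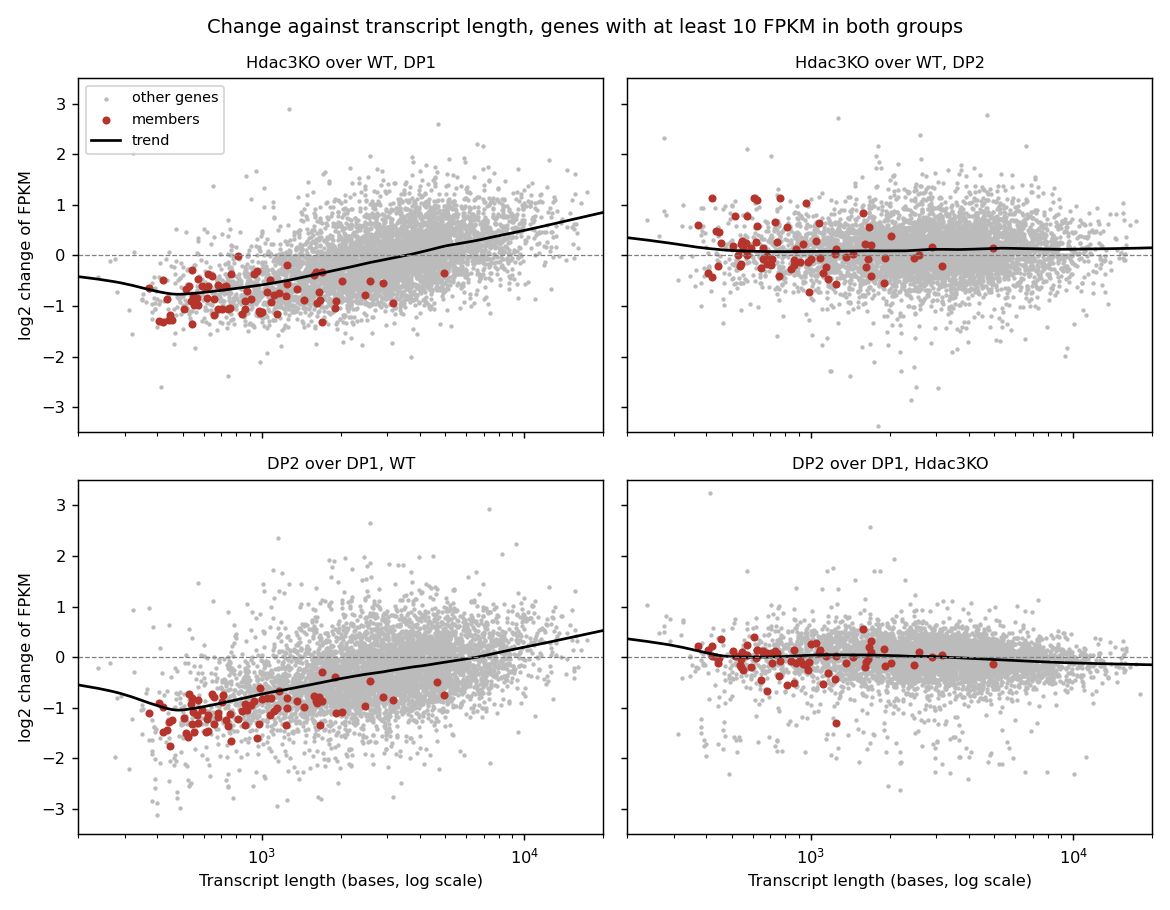
Log2 change of FPKM against principal transcript length (log axis) for genes at or above 10 FPKM in both groups compared, with members in red and a lowess trend in black; points beyond 3.5 log2 units are not drawn. The trend slopes for Hdac3KO over WT in DP1 cells and for DP2 over DP1 in WT cells, where Spearman rho over all such genes is 0.50 and 0.39, and is nearly flat in the other panels.

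The members were therefore set beside genes of like length whose higher group reached 10 FPKM, as the plot of change against length shows. Level was not matched beyond that minimum, and its part in the shares called was not tested. In DP1 cells 43 of 75 such members fell (57.3%), against 34.2% of length-matched genes. Their median log2 change was -0.80, against -0.55 for length-matched genes. All of the 75 values were lower in Hdac3KO DP1 cells, against 80.5% of the values of length-matched genes. The length trend was fitted with the members included, so removing it also takes away part of their own change. With that trend removed, the members' median was -0.23 against -0.04 for length-matched genes, and 68.0% of members' values against 53.0% were below 0. Members called lower then numbered 5 of 78: Ndufv2, Ndufs5, Sdhc, Uqcrc2 and Atp5g1.

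Those 5 came from 4 complexes, 2 from complex I and 1 each from complexes II, III and V. Of the 8 complex III genes that fell as deposited, only Uqcrc2 was called with the trend removed. Median changes with the trend removed were -0.20, -0.54, -0.29, -0.12 and -0.21 in complexes I to V, in that order. The 5 called members had the following changes with the trend removed. Ndufs5 was at -2.01, Atp5g1 at -1.05, Ndufv2 at -0.96, Sdhc at -0.89 and Uqcrc2 at -0.74. Sdhc and Atp5g1 have long transcripts in GENCODE M21, of 3171 and 4660 bases, and other genes over 2500 bases had a median of 0.11 as deposited. Atp5g2 and Atp5g3, which encode the same mature protein as Atp5g1, are at 441 and 714 bases there. The annotation behind the FPKM is not given, so the length used for Atp5g1 is unknown. Atp5g1 also has 1 near-identical copy, a pseudogene at 99.8% identity. Uqcrc2, a core protein of complex III, was at 49.0 FPKM in Hdac3KO DP1 and 100.3 FPKM in WT DP1 cells (log2 change as deposited -1.04 ± 0.27, q = 0.00154 in the authors' deposited table).

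**Figure D4:**
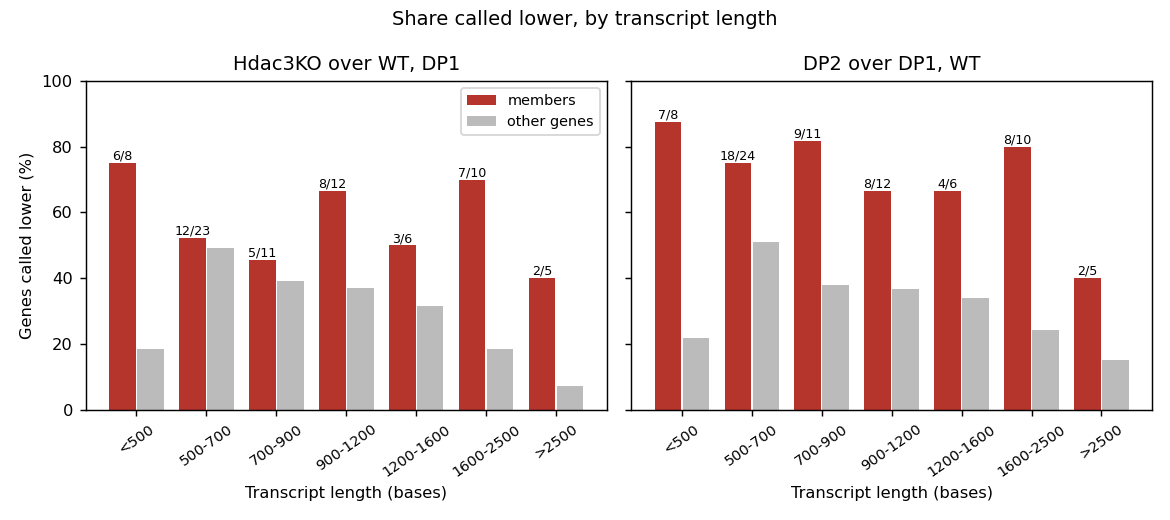
Share of genes called lower (%), by principal transcript length in bases, for members (red, with called and tested numbers) and other genes (grey) whose higher group reached 10 FPKM. For Hdac3KO over WT in DP1 cells the members' share is close to that of other genes at 500 to 700 bases, at 12 of 23 against 49.2%, and above it at 1600 to 2500 bases, at 7 of 10 against 18.4%.

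The gap between members and other genes differed along the range of lengths, as the bar plot by length shows. At 500 to 700 bases, where members are most numerous, 12 of 23 members and 49.2% of 130 other genes were called lower in Hdac3KO DP1 cells, with medians of -0.80 and -0.78. At 900 to 1200 bases 8 of 12 members and 37.1% of 364 other genes were called. At 1600 to 2500 bases 7 of 10 members and 18.4% of 1354 other genes were called, with medians of -0.83 and -0.29. Below 500 bases 6 of 8 members and 18.5% of 211 other genes were called.

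Other gene families were counted in the same way. Lower calls in Hdac3KO DP1 cells were 65 of 95 for cytosolic ribosomal protein genes, 24 of 39 for proteasome genes and 26 of 76 for mitochondrial ribosomal protein genes, against 44 of 78 for the oxidative phosphorylation genes. Removing the length trend left 4, 4, 5 and 5 called lower, in the same order. The medians as deposited were -0.78, -0.74, -0.63 and -0.80. Near-identical copies were found for 20 members, of which 14 fell, and 30 of 58 tested members without such copies fell. The X-linked members were Ndufa1, Ndufb11 and Cox7b, and of these Cox7b fell, at 96.4 FPKM in Hdac3KO DP1 and 208 FPKM in WT DP1 cells (q = 0.000879 in the authors' deposited table). Ndufa1 was at 29.5 and 41.2 FPKM and Ndufb11 at 30.2 and 54.9 FPKM in Hdac3KO DP1 and WT DP1 cells, and neither passed.

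Further genes of the pathway were counted from lists chosen with results of these data known. Among 14 other subunits and carriers, 10 fell and 0 rose in Hdac3KO DP1 cells, and 1 was called lower with the length trend removed. Cycs, cytochrome c, was at 35.4 FPKM in Hdac3KO DP1 and 75.1 FPKM in WT DP1 cells, with a log2 change of -1.08. Atpif1, the inhibitor of ATP synthase, was at 114 FPKM in Hdac3KO DP1 and 245 FPKM in WT DP1 cells, with a log2 change of -1.10. Slc25a5, an ADP/ATP carrier, was at 222 FPKM in Hdac3KO DP1 and 390.5 FPKM in WT DP1 cells, with a log2 change of -0.81. Slc25a3, the phosphate carrier, did not pass (log2 change -0.18).

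Enzymes of the tricarboxylic acid cycle fell for 6 of 13 genes, and for 2 of 13 with the length trend removed, among them Mdh2 at 94.0 FPKM in Hdac3KO DP1 against 174 FPKM in WT DP1 cells and Idh3g at 34.4 against 74.5 FPKM in the same groups. Assembly factors, which build the complexes but are not part of them, fell for 2 of 29 tested genes, Bcs1l and Cox19. The median log2 change of that list was -0.28, and its transcripts are longer, with a median of 2119.5 bases. With the length trend removed, 0 assembly factors were called lower and 1 higher, and their median was 0.06. Of 17 tested regulators of mitochondrial gene expression, 1 rose and 1 fell. Yy1 was at 76.9 FPKM in Hdac3KO DP1 and 49.4 FPKM in WT DP1 cells (q = 0.0415 in the authors' deposited table), and Myc was at 2.08 against 5.70 FPKM in the same groups. The call of Yy1 ended when the length trend was removed, which left 0 of the 17 called higher and 2 lower. Nrf1 and Gabpa did not pass, with log2 changes of 0.20 and 0.60. Subunits encoded in mitochondrial DNA were not analysed here.

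The same question was asked of DP2 cells, the later population. There the oxidative phosphorylation genes stood at about the same level in both genotypes. Of 77 tested members 3 rose and 0 fell in Hdac3KO DP2 cells, where 6.44% of all 10674 tested genes were called higher and 4.32% lower, 10.8% in all. The members summed to 5959 FPKM in Hdac3KO DP2 and 5470 FPKM in WT DP2 cells. Their median log2 change was 0.02, against 0.08 for all genes with a single symbol. Values were higher for 42 members and lower for 35.

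The 3 that rose were Ndufb7, Atp5j2 and Ndufv3. Ndufb7, an accessory subunit on the outer face of the complex I membrane arm, was at 65.3 FPKM in Hdac3KO DP2 and 30.4 FPKM in WT DP2 cells (log2 change 1.10 ± 0.37, q = 0.0304 in the authors' deposited table). Atp5j2, subunit f of ATP synthase, was at 115 FPKM in Hdac3KO DP2 and 56.4 FPKM in WT DP2 cells (log2 change 1.03 ± 0.35, q = 0.0345 in the authors' deposited table). Ndufv3, an accessory subunit near the NADH site, was at 184 FPKM in Hdac3KO DP2 and 103 FPKM in WT DP2 cells (log2 change 0.84 ± 0.29, q = 0.0441 in the authors' deposited table). All 3 calls ended when changes were centred on the median gene, which stood at 0.12 in this table, or when the length trend was removed. None of the 44 genes that fell in DP1 cells was called in DP2 cells in either direction. Over all genes, 1358 fell in DP1 cells, of which 180 (13.3%) also fell in DP2 cells and 5 rose there.

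Other members came near the threshold with higher values in Hdac3KO DP2 cells. Ndufa4 was at 79.6 FPKM in Hdac3KO DP2 and 36.1 FPKM in WT DP2 cells (log2 change 1.14 ± 0.42, q = 0.0563 in the authors' deposited table). Ndufa1 was at 38.02 FPKM in Hdac3KO DP2 and 17.3 FPKM in WT DP2 cells (log2 change 1.13 ± 0.46, q = 0.0947 in the authors' deposited table). Ndufs5 was again lower, at 6.16 FPKM in Hdac3KO DP2 and 19.3 FPKM in WT DP2 cells, but with an error too wide to pass (log2 change -1.64 ± 1.38, q = 0.520 in the authors' deposited table). The 4 Sdh genes did not pass, with log2 changes from -0.23 ± 0.26 for Sdhb to 0.16 ± 0.24 for Sdha. Among the double-positive markers 4 of 9 rose, with summed levels of 7358 FPKM in Hdac3KO DP2 and 3310.5 FPKM in WT DP2 cells, and their part in the members' values was not tested.

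Whether the change between genotypes differed between the stages was tested directly, as the log2 change in DP2 minus that in DP1 cells. The signed change was higher in DP2 than in DP1 cells for 5 members, Ndufv1, Cox4i1, Ndufa4, Atp5h and Cox6c, and lower for 0. Of all 10144 genes tested this way, 2.08% passed at a q of 0.05 or less, 0.897% with the higher signed change in DP2 cells and 1.18% with the lower. Each of the 5 was lower in Hdac3KO than in WT in DP1 cells and higher in DP2 cells by its values as deposited. None of the 5 was called in DP2 cells by the deposited q, and Ndufa4 and Atp5h were not called in DP1 cells either. In DP1 cells the log2 changes of Ndufa4 and Atp5h were 0.09 and 0.11 with the length trend removed.

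**Figure D5:**
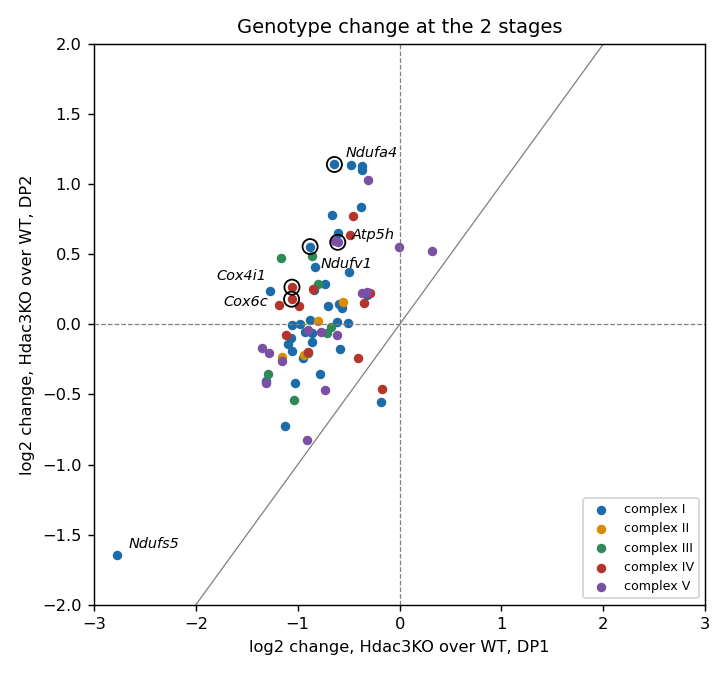
Log2 change of Hdac3KO over WT in DP2 cells (y axis) against that in DP1 cells (x axis) for each tested member, coloured by complex; the diagonal marks equal changes, and circles mark the 5 members whose changes differed between stages. Nearly all points lie above the diagonal, and Ndufs5 is the lowest member in both, at -2.77 in DP1 and -1.64 in DP2 cells. Length-matched genes moved the same way, with medians of -0.55 in DP1 and 0.08 in DP2 cells. Their share above the diagonal was not counted.

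The sizes of the differences for the circled genes, with q from a two-sided normal test adjusted over all genes by Benjamini-Hochberg, were as follows. For Ndufv1 the difference was 1.43 ± 0.37 (SE, q = 0.0227). Cox4i1 differed by 1.32 ± 0.36 (q = 0.0297), and Ndufa4 by 1.78 ± 0.51 (q = 0.0400). For Atp5h, subunit d of the ATP synthase stalk, it was 1.19 ± 0.35 (q = 0.0402), and for Cox6c 1.24 ± 0.36 (q = 0.0407). Atp5h was at 341 FPKM in Hdac3KO DP1 against 520 FPKM in WT DP1 cells, and at 418 FPKM in Hdac3KO DP2 against 278 FPKM in WT DP2 cells. With the length trend removed from both tables, 0 of the 5 passed, and likewise 0 with SE multiplied by 1.5. Across the 77 members tested at both stages, the order of changes was partly shared (Spearman rho 0.50, and 0.35 over 5360 genes at or above 10 FPKM in all groups).

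The third comparison asks how the genes change from DP1 to DP2 in WT cells. It shares the WT DP1 libraries with the first comparison, so the lower values against WT DP1 in both are not independent. Of 77 tested members 56 fell and 0 rose in WT DP2 cells, where 16.8% of all 10851 tested genes were called lower and 5.56% higher, 22.3% in all. All of the 77 values were lower in WT DP2 cells, as were 7058 of 10843 tested genes with a single symbol. The members summed to 5270 FPKM in WT DP2 and 10912 FPKM in WT DP1 cells, a ratio of 0.483, with a median log2 change of -1.01 against -0.24 for all genes with a single symbol. Levels of WT DP1 cells in this table are on a scale of their own, with the genotype table at a median of 0.881 times it.

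By complex, 26 of 36 genes of complex I fell, 4 of 4 of complex II, 7 of 8 of complex III, 9 of 13 of complex IV and 10 of 16 of complex V. Uqcr11, a small subunit of complex III, had the largest change, at 25.9 FPKM in WT DP2 and 88.0 FPKM in WT DP1 cells (log2 change -1.76 ± 0.47, q = 0.00207 in the authors' deposited table). Ndufb3 was at 11.3 FPKM in WT DP2 and 35.5 FPKM in WT DP1 cells (log2 change -1.65 ± 0.51, q = 0.0101 in the authors' deposited table). Atp5j2 was at 54.4 FPKM in WT DP2 and 165 FPKM in WT DP1 cells (log2 change -1.61 ± 0.40, q = 0.000835 in the authors' deposited table). Next in size came Ndufs5 (-1.58), Ndufa11 (-1.52), Ndufa3 (-1.51), Ndufa1 (-1.49), Cox8a (-1.48), Ndufa4 (-1.47) and Ndufb7 (-1.45).

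Core and catalytic genes fell as well. Atp5b was at 361 FPKM in WT DP2 and 782 FPKM in WT DP1 cells (log2 change -1.11 ± 0.30, q = 0.00261 in the authors' deposited table). Sdhd was at 28.8 FPKM in WT DP2 and 72.9 FPKM in WT DP1 cells (log2 change -1.34 ± 0.33), and Sdha, Sdhb and Sdhc had log2 changes of -0.79, -1.01 and -0.84. Cox4i1 was at 124 FPKM in WT DP2 and 317 FPKM in WT DP1 cells (log2 change -1.35 ± 0.33, q = 0.000835 in the authors' deposited table). Uqcrc2 (-0.39, q = 0.338), Ndufs4 (-0.29, q = 0.481) and Ndufs1 (-0.47, q = 0.271 in the authors' deposited table) did not pass.

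Length moved with this comparison too. Over 5789 genes at or above 10 FPKM in both of these groups rho with length was 0.39, and across the 77 members it was 0.49. Of 76 members whose higher group reached 10 FPKM, 73.7% fell, against 36.6% of length-matched genes, with medians of -1.05 and -0.76. All of these 76 values were lower in WT DP2 cells, against 83.3% of the values of length-matched genes. With the length trend removed 0 members passed. The members' median was then -0.27, against -0.03 for length-matched genes, and 80.3% of members' values against 53.0% were below 0.

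Other lists were counted in WT cells too. Lower calls in WT DP2 cells were 76 of 94 for cytosolic ribosomal protein genes, 18 of 39 for proteasome genes and 26 of 76 for mitochondrial ribosomal protein genes, and 3, 0 and 2 with the length trend removed. Of the tricarboxylic acid cycle genes 7 of 13 fell, of other subunits and carriers 6 of 14, of assembly factors 1 of 30 (Cox17, a copper chaperone of complex IV) and of regulators 1 of 17 (Myc). Removing the length trend left 0 of the cycle genes, 1 carrier, 0 assembly factors and 0 regulators called lower. Markers of double-positive thymocytes themselves moved, 6 of 9 lower in WT DP2 than in WT DP1 cells, with summed levels of 3185 and 6976 FPKM, and 1 of 9 was called lower with the length trend removed. Ptcra, the pre-TCR α chain of earlier cells, was at 10.4 FPKM in WT DP2 and 41.6 FPKM in WT DP1 cells. The 5 markers of double-negative cells summed to 218 FPKM in WT DP2 and 67.9 FPKM in WT DP1 cells. Of these, Hhex rose, at 208 FPKM in WT DP2 and 54.8 FPKM in WT DP1 cells, and Notch3 fell, at 1.43 and 6.38 FPKM in the same groups. The part of cell composition in the result was not tested, and in bulk RNA fewer cells of a type and less RNA per cell cannot be told apart.

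In Hdac3KO cells the members stood at about the same level at both stages, by their values as deposited. Of 78 tested members 1 fell and 0 rose in Hdac3KO DP2 against Hdac3KO DP1 cells, where 4.65% of all 10231 tested genes were called lower and 1.78% higher, 6.43% in all. The sums were 5410 FPKM in Hdac3KO DP2 and 5496 FPKM in Hdac3KO DP1 cells, a ratio of 0.984, and the median log2 change was -0.01. The gene that fell was Ndufc1, a small membrane arm subunit of complex I, at 27.2 FPKM in Hdac3KO DP2 and 66.7 FPKM in Hdac3KO DP1 cells (log2 change -1.29 ± 0.38, q = 0.0156 in the authors' deposited table). With the length trend removed its change was -1.34 and it still passed. Ndufc1 was also lower in WT DP2, at 42.6 FPKM against 85.8 FPKM in WT DP1 cells (q = 0.0420 in the authors' deposited table), and was the only member called in both stage comparisons.

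Of the 56 members that fell in WT cells, 55 were tested in Hdac3KO cells without passing and 1 fell there too. None of the 56 passed in WT cells with the length trend removed. Over all genes, 1818 fell in WT cells, of which 355 (19.5%) also fell in Hdac3KO cells. Atp5b stood at 330.0 FPKM in Hdac3KO DP2 and 371 FPKM in Hdac3KO DP1 cells, Sdhb at 51.0 and 50.5 FPKM, Uqcrh at 178 and 166 FPKM and Cox4i1 at 141 and 134 FPKM in the same groups. None of these 4 passed, with log2 changes of -0.17, 0.02, 0.10 and 0.08. A test of the difference between the stage changes is the same contrast as that between the genotype changes, on the same libraries. Computed from the stage tables it passed for 12 members, the 5 circled genes among them, and for 3.13% of all 9969 genes tested this way. With the length trend removed from the genotype changes none of the 5 passed, nor with SE multiplied by 1.5. Cox7a1 was at 1.80 FPKM in Hdac3KO DP2 and 6.80 FPKM in Hdac3KO DP1 cells (log2 change -1.92 ± 1.15, q = 0.440 in the authors' deposited table).

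Side by side, WT DP1 cells held the members at the highest level in both tables that contain them. Length-matched genes also had lower medians against WT DP1 cells, at -0.55 in Hdac3KO DP1 and -0.76 in WT DP2 cells. Over genes at or above 10 FPKM, rho of change with length was 0.50 and 0.39 in these comparisons. It was 0.03 for Hdac3KO over WT in DP2 cells and -0.14 for DP2 over DP1 in Hdac3KO cells. The slope thus went with comparisons that hold WT DP1 cells, and its cause was not tested. In the genotype tables the median member was at 53.7 FPKM in Hdac3KO DP1 against 82.3 FPKM in WT DP1 cells, and at 58.0 FPKM in Hdac3KO DP2 against 50.4 FPKM in WT DP2 cells. In the stage tables it was at 52.7 FPKM in Hdac3KO DP2 against 53.8 FPKM in Hdac3KO DP1 cells, and at 48.0 FPKM in WT DP2 against 92.9 FPKM in WT DP1 cells. The tables were scaled separately, so these levels were compared only within a table. Between genotypes in DP1 cells, 0 of 9 markers of double-positive thymocytes passed in either direction, with summed levels of 6891 FPKM in Hdac3KO DP1 and 6148 FPKM in WT DP1 cells. Markers of other cells were low in Hdac3KO DP1 and WT DP1 cells. B cell markers summed to 7.72 and 8.58 FPKM in these groups, with 0 of 1 tested gene called. Myeloid markers summed to 14.1 and 6.76 FPKM, with Itgam higher in Hdac3KO and Emr1 listed at 0 there. Erythroid markers summed to 2.73 FPKM in Hdac3KO DP1 and 1.496 FPKM in WT DP1 cells, with Alas2 higher in Hdac3KO and the globin gene Hbb-b2 listed at 0 in both. Thymic epithelium markers summed to 9.42 and 6.48 FPKM in the same groups, with Psmb11 higher in Hdac3KO, and NK and gamma delta markers to 0.983 and 0.530 FPKM, with Klrd1 listed at 0 in both. The double-negative markers summed to 36.5 FPKM in Hdac3KO DP1 and 59.3 FPKM in WT DP1 cells, with Il2ra higher and Hhex lower. The part of these markers in the members' changes was not tested.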

How the data were processed

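RNA of 8 samples (4 groups of 2) was measured by sequencing of stranded libraries made with a Clontech SMARTer kit from ribosome-depleted RNA pools, per the labels' protocols. The submitters' processing notes name mm10 as genome and, as tools, Cuffdiff 2.1.1, TopHat2 2.0.11 and Trimmomatic 0.32; settings and gene annotation are not given in the sources used here. The authors deposited 1 FPKM per gene and group, scaled between the 2 groups of each table, and Cuffdiff's p-value and q-value of the comparison. Log2 changes were computed here from the deposited FPKM without a pseudocount, as spreadsheet handling had spoilt the deposited log2 column. The 87 entries that join several genes were left out. Depth per library is unknown, so no counting interval is given.

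A member was called at the deposited q of 0.05 or less, since no value per sample is given from which to test again. Separate animals are not stated for the samples of a group, so p measures only the spread between these pooled samples. SE was worked back by dividing the log2 change by the normal z that matches the deposited p. Where that p is 5e-05, the smallest given, SE is an upper bound, and for p close to 1 it is imprecise. The difference between stages was tested with these SE (normal p, two-sided, Benjamini-Hochberg over all genes). The procedure was run on simulated data with known answers, in which the SE was known and the length slope was the same at both stages. Errors from working SE back from p, and length slopes that differ between stages, were therefore not covered. The length trend is a lowess curve (fraction 0.3) on the log2 length of the principal transcript in GENCODE M21, over genes at or above 10 FPKM in both groups compared. Members were not left out of that fit, so it is not independent of their changes. Calls after removing it, or after centring on the median gene, use the same SE and Benjamini-Hochberg over all genes. Length-matched genes were weighted over 7 length classes as the members fall in them, and were not matched on level beyond the minimum of 10 FPKM. Near-identical copies were sought with BLAST+ 2.17.0 (at least 95% identity over 80% of the coding sequence). The software was Python 3.11.15 with pandas 2.3.3, scipy 1.17.1, statsmodels 0.14.6 and matplotlib 3.10.9.

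Members and lists were chosen with earlier results of these data known. 1 named result is not reported here. Named with values were the called members with the largest change, up to 10 in each direction of a comparison, the highest member of each complex, the Sdh genes, those passing the stage difference and the isoform families. Other members, and members given as not passing, were named after their values were seen. Alternatives were another q (0.01 and 0.10), a log2 change of at least 1, centring, removal of the length trend (also with the longest transcript, chosen after seeing the data), a minimum of 5 FPKM, adjustment over all tables, a pseudocount of 1 FPKM, SE multiplied by 1.5 and the stage tables in place of the genotype tables.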

Additional observations from a re-analysis of the deposited data

Results flagged for a closer look

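For 5 of 77 members tested, the change between genotypes differed between DP2 and DP1 cells by the test of the difference itself. Over all 10144 genes tested this way 2.08% passed. The log2 change of Hdac3KO over WT in DP2 minus that in DP1 cells was 1.43 for Ndufv1, 1.32 for Cox4i1, 1.78 for Ndufa4, 1.19 for Atp5h and 1.24 for Cox6c. In DP2 cells the changes were 0.55, 0.27, 1.14, 0.59 and 0.18, and in DP1 cells -0.88, -1.06, -0.64, -0.61 and -1.06, in the same order. None of the 5 was called in DP2 cells by the deposited q, and Ndufa4 and Atp5h were not called in DP1 cells either. The 5 come from complexes I, IV and V and span a wide range of levels. With the length trend removed from both tables, 0 of the 5 passed. Samples far from the others could not be looked for, since the tables hold 1 value per group.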

How the results depend on the processing

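Members called lower in Hdac3KO DP1 cells numbered 44, and 29 at q of 0.01, 20 with a log2 change of at least 1, 5 with the length trend removed and 7 with that trend on the longest transcript. Members called higher in Hdac3KO DP2 cells numbered 3, and 8 at q of 0.10, against 0 at q of 0.01, 0 after centring on the median gene, 0 with the length trend removed and 0 with the longest transcript. Members called lower in WT DP2 cells numbered 56, and 30 at q of 0.01, 22 after centring, 0 with the length trend removed and 4 with the longest transcript. The 1 member called lower in Hdac3KO DP2 cells became 0 at q of 0.01. The 5 differences between stages became 0 with SE multiplied by 1.5, 0 with the length trend removed, 1 after centring, 12 from the stage tables and 19 at an adjusted p of 0.10. With the length trend removed, values lay above 0 for 16 of 77 members in DP2 over DP1 in WT cells and for 26 of 78 in Hdac3KO over WT in DP1 cells, of which 16 and 24 had been below 0. Called members among them were 5 in WT cells and 0 in DP1 cells, and the change in WT cells turned to 0.0168 for Atp5e, 0.151 for Atp5g3, 0.0259 for Ndufb9, 0.0954 for Uqcrb and 0.0513 for Uqcrq. The cause was not tested. A minimum of 5 FPKM, adjustment over all tables and a pseudocount of 1 FPKM kept every count and median named here within 1.5 times. No paired analysis was possible because the tables hold 1 value per group, and for the same reason no replicate could be left out.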
